A study of Mus musculus with 4 samples.

Results

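PRAME-like genes encode leucine-rich repeat proteins of a family that has spread by tandem duplication in rodents. The genes described here are 8 of them in mouse embryonic stem cells (mESCs), *Pramel4*, *Pramel5*, *Pramel6*, *Pramel7*, *Gm13109*, *Gm13119*, *Gm13057* and *Gm12794*, out of 37620 genes in the count table. They were chosen by name as members of the family, after *Gm13109* had been picked for its fall in MUT_CTCF mESCs, so the values of *Gm13109* are given as a description and without a test. The RNA of WT_CTCF mESCs was sequenced beside that of MUT_CTCF mESCs, with 2 biological replicates of each line, to ask how the loss of an O-GlcNAc site on the chromatin organiser CTCF affects gene expression. Both lines were made from mESCs that carry CTCF-EGFP-AID, the endogenous CTCF fused to a fluorescent protein and to a degron that auxin triggers. These cells received a vector for the wild-type protein (WT_CTCF) or for CTCF in which the threonine that carries O-GlcNAc was changed (MUT_CTCF), and auxin was then used in both lines to degrade the endogenous protein. Both were grown on gelatin in serum with LIF. Each line was a picked clone whose level of exogenous CTCF was close to the endogenous one, so a difference between the clones cannot be told apart from a difference between the CTCF proteins. With 2 libraries a line the smallest two-sided p of an exact permutation test is 0.333, so the tests below are those of edgeR's quasi-likelihood model across all genes, adjusted by the Benjamini-Hochberg method.

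Many PRAME-like genes are known from oocytes, early embryos and testis, and most are silent in other tissues. The best described in mESCs is PRAMEL7, which acts with a CUL2 ubiquitin ligase. It directs the ligase to UHRF1, the protein that keeps DNA methylation in place through cell division, and its gene is known as a target of the LIF and STAT3 pathway. The functions of *Gm13109*, *Gm13119*, *Gm13057* and *Gm12794* are known mainly by their likeness to these relatives. RefSeq lists *Gm13109* as *Pramel16*, *Gm13119* as *Pramel31* and *Gm12794* as *Pramel19*.

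All 8 genes are protein-coding genes of the mm9 genome. *Pramel7* (ENSMUSG00000025839, chr2:87329244-87337250, minus strand) and *Pramel6* (ENSMUSG00000025838, chr2:87346722-87351029, plus strand) lie side by side on chromosome 2. *Gm12794* (ENSMUSG00000070890, chr4:101613012-101615788, plus strand) lies in a small group on chromosome 4. The other members share a large cluster on chromosome 4, where *Gm13057* (ENSMUSG00000078514) spans chr4:143101246-143148137 on the plus strand and *Gm13109* (ENSMUSG00000078511) spans chr4:143538077-143544602 on the minus strand. *Pramel4* (ENSMUSG00000073724, chr4:143649029-143659230, plus strand), *Pramel5* (ENSMUSG00000036749, chr4:143860536-143870391, minus strand) and *Gm13119* (ENSMUSG00000070619, chr4:143947845-143954322, plus strand) follow in that order. They have 3 to 6 exons in the GENCODE M1 annotation and encode proteins of 479 to 508 residues.

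The authors counted uniquely mapped reads, so a stretch of sequence that occurs in more than 1 gene gives no count to any of them. The following coding stretch of 120 bases shows how far this goes for *Gm13109*. It covers coding bases 333 to 452 of *Gm13109* (chr4:143539990-143540109, minus strand), and is set beside *Gm13057* (chr4:143146116-143146235, plus strand), *Gm13119* (chr4:143952304-143952423, plus strand) and the further family gene *BC080695* (chr4:143161679-143161798, plus strand). The sequences were read from the mm9 genome, and capitals mark the bases that differ from *Gm13109*.
Gm13109: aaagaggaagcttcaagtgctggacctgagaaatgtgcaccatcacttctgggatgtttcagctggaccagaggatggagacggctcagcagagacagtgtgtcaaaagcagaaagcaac
Gm13057: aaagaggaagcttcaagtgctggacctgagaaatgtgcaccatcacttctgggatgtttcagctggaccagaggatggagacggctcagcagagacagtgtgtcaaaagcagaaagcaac
Gm13119: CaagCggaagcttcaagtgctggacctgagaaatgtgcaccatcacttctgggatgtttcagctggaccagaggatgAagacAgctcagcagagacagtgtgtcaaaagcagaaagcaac
BC080695: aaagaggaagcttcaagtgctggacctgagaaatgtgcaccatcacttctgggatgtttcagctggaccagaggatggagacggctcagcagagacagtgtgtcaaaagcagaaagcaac
Over this window *Gm13057* and *BC080695* did not differ from *Gm13109* at any base, and *Gm13119* differed at 4 of 120 bases. A read of this whole window from *Gm13109*, taken alone, could not be placed on 1 gene. The window of *Gm13119* can be told from the others shown, but was not looked up in the rest of the genome.

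The same held for *Pramel4* and its neighbour *Gm13102*. The window covers coding bases 912 to 1031 of *Pramel4* (chr4:143657835-143657954, plus strand), with *Gm13102* (chr4:143698611-143698730, plus strand) and *Pramel5* (chr4:143861586-143861705, minus strand). Capitals mark the bases that differ from *Pramel4*.
Pramel4: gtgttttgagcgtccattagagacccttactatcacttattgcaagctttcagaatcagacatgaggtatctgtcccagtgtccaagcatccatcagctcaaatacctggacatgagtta
Gm13102: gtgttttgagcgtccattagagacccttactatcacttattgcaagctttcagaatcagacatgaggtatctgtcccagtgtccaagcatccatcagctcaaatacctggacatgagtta
Pramel5: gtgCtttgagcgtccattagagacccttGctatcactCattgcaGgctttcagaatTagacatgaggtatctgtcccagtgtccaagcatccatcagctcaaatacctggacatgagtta
There was no difference between *Pramel4* and *Gm13102* over these bases and there were 5 between *Pramel4* and *Pramel5*. *Gm12794* has a close copy of its own, *Gm12800*, and the window from coding base 288 to 407 of *Gm12794* (chr4:101613726-101613845, plus strand) is set beside that of *Gm12800* (chr4:101582451-101582570, plus strand), with capitals at the bases that differ from *Gm12794*.
Gm12794: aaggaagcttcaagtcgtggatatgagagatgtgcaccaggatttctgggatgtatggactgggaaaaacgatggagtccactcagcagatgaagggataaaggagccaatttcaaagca
Gm12800: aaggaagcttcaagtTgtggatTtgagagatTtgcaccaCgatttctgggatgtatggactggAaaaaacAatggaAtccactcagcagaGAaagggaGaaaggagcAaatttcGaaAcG
This pair differed at 14 of 120 bases.

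Across whole exons the members fell into those that reads can reach and those that reads cannot. Each exon was cut into all overlapping stretches of 50 and of 100 bases, and each stretch was looked up on both strands of the mm9 genome. *Pramel6* was almost free of copies, with 99.9% of its 50-base stretches found at 1 place, and *Pramel7* had 97.1%. *Pramel5* had 68.8%, *Gm13119* 56.2%, *Gm12794* 50.7% and *Gm13109* 39.5%. *Pramel4* had 4.23% and *Gm13057* had 0%, so a read of this length, taken alone, could be placed on little of the one and on none of the other. With 100-base stretches these shares rose to 95.8% for *Pramel5*, 84.1% for *Gm13119*, 79.1% for *Gm13109*, 57.4% for *Gm12794* and 9.63% for *Pramel4*, and stayed at 0% for *Gm13057*. Over 325 other tested genes, every 50th of the table, the median was 100% at 50 bases and the 5th percentile was 42.0%, so *Gm13109* lay below the 5th percentile at this length. At 100 bases the 5th percentile was 58.3% (323 genes), with *Gm13109* above it and *Gm12794* just below it. The copies that held the largest shares were other genes of chromosome 4. *Gm13057* shared 99.1% of its 50-base stretches with *Gm13040* and as many with *Gm13043*, and *Pramel4* shared 93.1% with *Gm13102*. *Gm13109* shared 32.1% with *Gm13057* and 23.8% with *Gm13119*. *Gm12794* shared 46.5% with *Gm12800*.

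**Figure D1:**
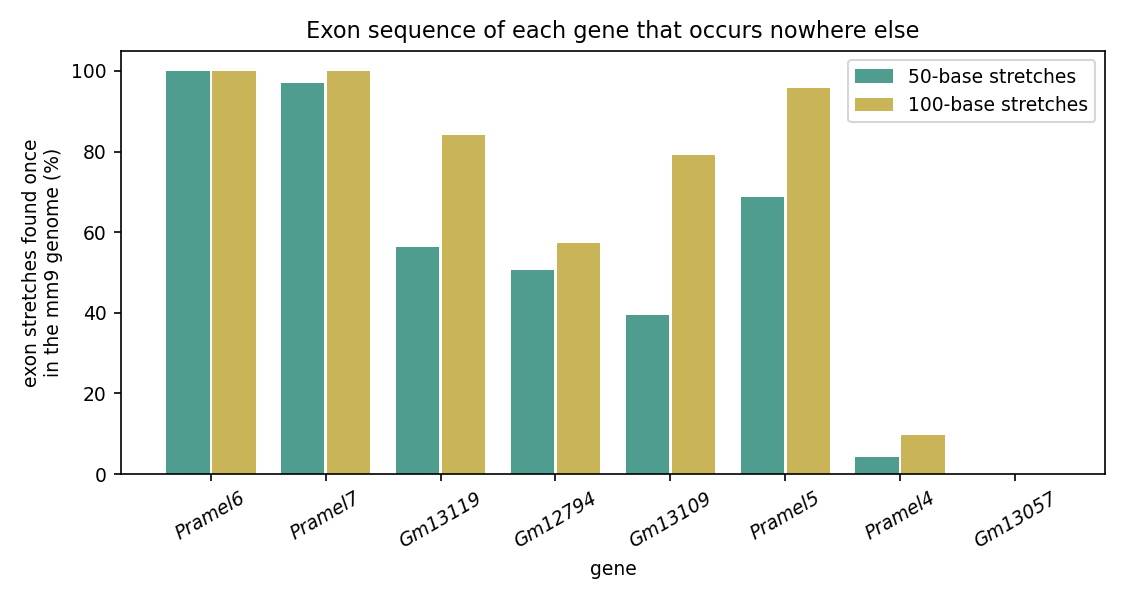
Share of the exon stretches of each gene that occur at 1 place in the mm9 genome (bars, in percent), for stretches of 50 and of 100 bases. *Pramel6* and *Pramel7* stand above 97% at both lengths, *Pramel4* stays below 10% and *Gm13057* is at 0%.

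The proteins fell into groups. Over the 28 pairs of members, the share of identical aligned residues ran from 35.4% to 94.8% with a median of 42.0%. *Gm13109* and *Gm13119* were the closest pair, at 94.8% over 481 aligned residues, and *Gm13057* matched *Gm13109* at 94.0% and *Gm13119* at 93.6%. *Pramel4* and *Pramel5* matched at 85.9%. *Pramel6* and *Pramel7*, though neighbours on chromosome 2, were the least alike of all pairs, at 35.4%. The closest relative of *Pramel7* in the family was *Gm13128* of the chromosome 4 cluster, at 67.5%, and that of *Pramel6* was *C87499*, at 54.2%.

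**Figure D2:**
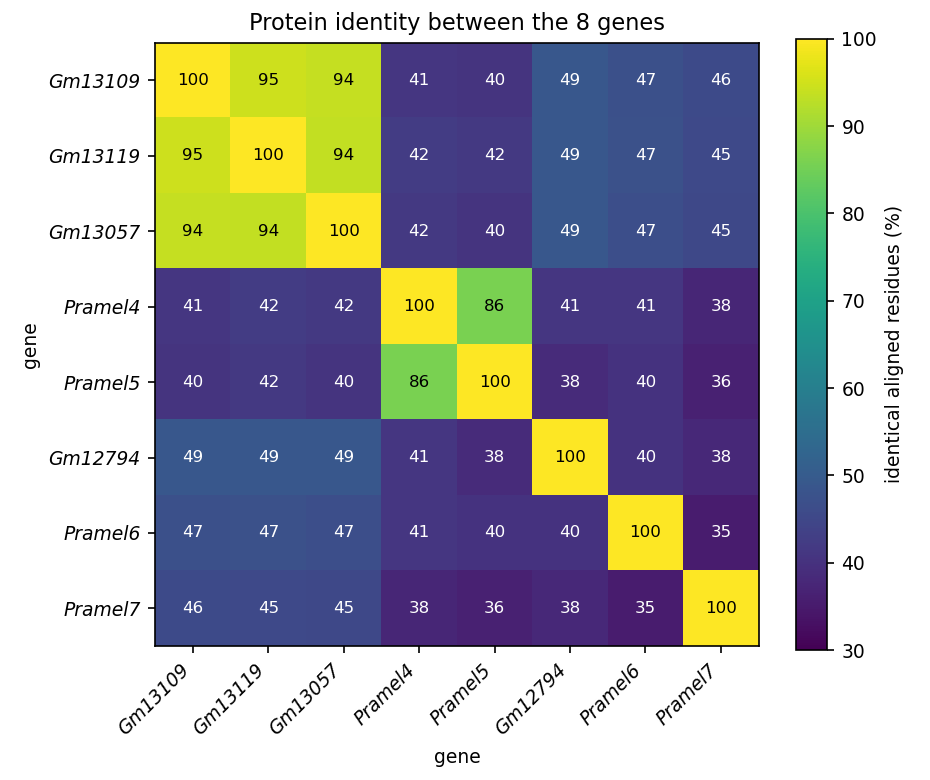
Identical aligned residues (percent, colour and printed value) between the translated coding sequences of the 8 genes. *Gm13109*, *Gm13119* and *Gm13057* form 1 block above 93%, *Pramel4* and *Pramel5* another at 85.9%, and the remaining genes stand apart.

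The stretch just before the annotated start of the gene was also nearly shared. The promoter of *Gm13109* (chr4:143544603-143544852, minus strand), taken as the 250 bases before the start that GENCODE M1 gives, is shown with those of *Gm13119* (chr4:143947595-143947844, plus strand) and *Gm13057* (chr4:143100996-143101245, plus strand), because these 3 promoters were much alike. The sequences are from mm9, and capitals mark TATAAA, the letters of a TATA box.
Gm13109: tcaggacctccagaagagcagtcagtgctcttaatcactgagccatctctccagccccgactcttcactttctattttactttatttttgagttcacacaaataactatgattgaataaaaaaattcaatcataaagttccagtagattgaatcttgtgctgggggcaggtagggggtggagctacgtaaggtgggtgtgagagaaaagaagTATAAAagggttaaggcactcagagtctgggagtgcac
Gm13119: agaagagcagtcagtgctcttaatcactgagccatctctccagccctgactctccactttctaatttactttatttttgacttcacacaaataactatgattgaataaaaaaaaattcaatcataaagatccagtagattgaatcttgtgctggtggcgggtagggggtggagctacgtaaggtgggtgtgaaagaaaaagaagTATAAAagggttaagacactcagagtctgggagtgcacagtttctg
Gm13057: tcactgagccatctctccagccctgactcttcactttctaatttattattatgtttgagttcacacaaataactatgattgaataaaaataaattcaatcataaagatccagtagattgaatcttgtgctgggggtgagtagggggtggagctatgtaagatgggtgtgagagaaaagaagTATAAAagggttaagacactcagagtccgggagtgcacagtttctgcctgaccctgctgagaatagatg
Over the aligned bases, the promoter of *Gm13109* was 96.2% identical to that of *Gm13119* and 94.4% identical to that of *Gm13057*. Those of *Pramel4* and *Pramel5* were 95.7% identical. TATAAA, searched on both strands, was found in *Gm13109*, *Gm13119* and *Gm13057* and in no other member, and 15.0% of 37199 promoters of the annotation held it. TTCNNNGAA, the letters of a STAT site, was found in none of the 8 promoters at this length, with 7.14% of all promoters holding it.

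The libraries held between 40524694 and 40977464 counts. Normalized counts were scaled by TMM to the size of the mean library. Of all genes, 16264 passed the filter on low counts and were tested, and their median log2 fold change was 0.0034. *Ctcf*, counted without telling the endogenous from the exogenous transcript, had a mean of 18485 ± 259 (SD, n = 2) in WT_CTCF and of 19058 ± 378 normalized counts in MUT_CTCF mESCs (log2 fold change 0.044, edgeR adjusted p = 0.499). The 6 pluripotency markers summed to between 5334 and 5380 CPM (counts scaled by library size) in WT_CTCF and between 5285 and 5287 CPM in MUT_CTCF mESCs, so the markers of the labelled cell type were present in every library. The sums for other cell types were far lower. For these, as for the pluripotency markers, the ranges of the sums in the 2 lines did not overlap. Among single tested genes, 22.3% had both MUT_CTCF libraries below both WT_CTCF libraries and 22.3% had both above. For 4 trophectoderm markers the sums were 43.6 to 45.8 CPM in WT_CTCF and 35.7 to 37.9 CPM in MUT_CTCF mESCs. For 3 markers of 2-cell-like cells they were 27.3 to 27.9 and 20.1 to 20.3 CPM. For 4 primitive endoderm markers they were 9.53 to 9.79 and 10.8 to 16.3 CPM, for 4 fibroblast markers 21.5 to 22.2 and 23.4 to 25.1 CPM, and for 6 oocyte markers 12.6 to 13.9 and 14.1 to 15.7 CPM. At an adjusted p under 0.05, edgeR called 2 of the trophectoderm and 1 of the 2-cell-like markers lower. Of the pluripotency markers, it called 1 higher and 1 lower. Over all tested genes, 3.17% were called in either direction. Of the 4 trophectoderm markers, 3 had a log2 fold change below 0 and 1 above 0, with a median of -0.21. *Cdx2*, 1 of the 2 called, was counted 274 and 298 times in WT_CTCF and 133 and 159 times in MUT_CTCF mESCs (log2 fold change -0.97, edgeR adjusted p = 0.00023). None of the markers of other cell types was at 0 in all libraries, and the part that such cells have in the members' values was not tested.

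Levels per length set the members in order. *Pramel6* had the highest level, with a mean of 16.5 CPM per kb of exon over the 4 libraries, 4.56 times that of *Pramel7* (3.62 CPM per kb). *Gm13119* (2.29 CPM per kb) and *Gm12794* (1.93 CPM per kb) followed, and their ranges over the 4 libraries overlapped, so their order was not resolved. *Gm13109* had 1.05 CPM per kb, with a range from 0.705 to 1.45 CPM per kb that met neither that of *Gm12794* above it nor that of *Pramel5* below it. *Pramel5* (0.064 CPM per kb) and *Pramel4* (0.0098 CPM per kb) overlapped each other, and *Gm13057* had no count. Among all tested genes, *Pramel6* stood at percentile 76.1 of this level, *Pramel7* at percentile 48.7 and *Gm13109* at percentile 29.9. The order depends on the exon length that reads can reach. Per kb of exon whose 50-base stretches occur at 1 place, *Gm13119* had 4.47, *Gm12794* 4.24, *Pramel7* 4.11 and *Gm13109* 2.93 CPM, so *Pramel7* no longer stood above *Gm13119* and *Gm12794*, whereas *Pramel6* stayed above the rest at 19.2 CPM. With 100-base stretches the mean of *Pramel7* on this measure was 4.45 CPM, against 4.22 for *Gm12794* and 3.25 for *Gm13119*, with 1.59 for *Gm13109*. The ranges of *Pramel7* and *Gm12794* over the 4 libraries overlapped on this measure, so their order was not resolved.

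Of the 8 members, 5 passed the filter on low counts (*Pramel6*, *Pramel7*, *Gm13119*, *Gm12794* and *Gm13109*). *Gm13109* was picked on this contrast, so it is left out of the counts that follow. Of the other 4, none was lower or higher at an adjusted p under 0.05, where 1.61% of all tested genes were lower and 1.56% were higher. Their edgeR adjusted p-values ran from 0.265 to 0.922, and DESeq2 called 0 of the 2 to which it gave an adjusted p. At an unadjusted p under 0.05 there was 1, *Gm12794*, beside 15.3% of all tested genes. The log2 fold change of these 4 was below 0, as for 7997 of the 16264 tested genes, with a median of -0.21 beside 0.0034 for all tested genes, and that of *Pramel6* and of *Gm13119* changed sign when 1 library was left out. In bulk RNA, fewer cells that express a gene and less RNA in each cell cannot be told apart.

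*Pramel7*, whose protein leads UHRF1 to degradation, and its neighbour *Pramel6* had the highest levels per kb of whole exon among the members. Per kb of exon found at 1 place, only *Pramel6* kept its place above the rest. *Pramel6* was counted 1485 and 1344 times in WT_CTCF replicates 1 and 2 and 1421 and 1368 times in MUT_CTCF replicates 1 and 2. Both MUT_CTCF libraries lay between the WT_CTCF libraries. With 1417 ± 99.1 normalized counts (SD, n = 2) in WT_CTCF and 1392 ± 24.2 in MUT_CTCF mESCs, the log2 fold change was -0.026 (edgeR adjusted p = 0.922), with an interval of 1.96 standard errors from -0.17 to 0.12. The sign turned to 0.046 without WT_CTCF replicate 1. *Pramel7* was counted 329 and 348 times in WT_CTCF and 300 and 285 times in MUT_CTCF mESCs. Both MUT_CTCF libraries were below both WT_CTCF libraries, which 22.3% of all tested genes also showed. The means were 339 ± 13.6 and 292 ± 7.81 normalized counts (SD, n = 2). The log2 fold change was -0.22 ± 0.143 (standard error; edgeR adjusted p = 0.515) with an interval from -0.50 to 0.064.

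**Figure D3:**
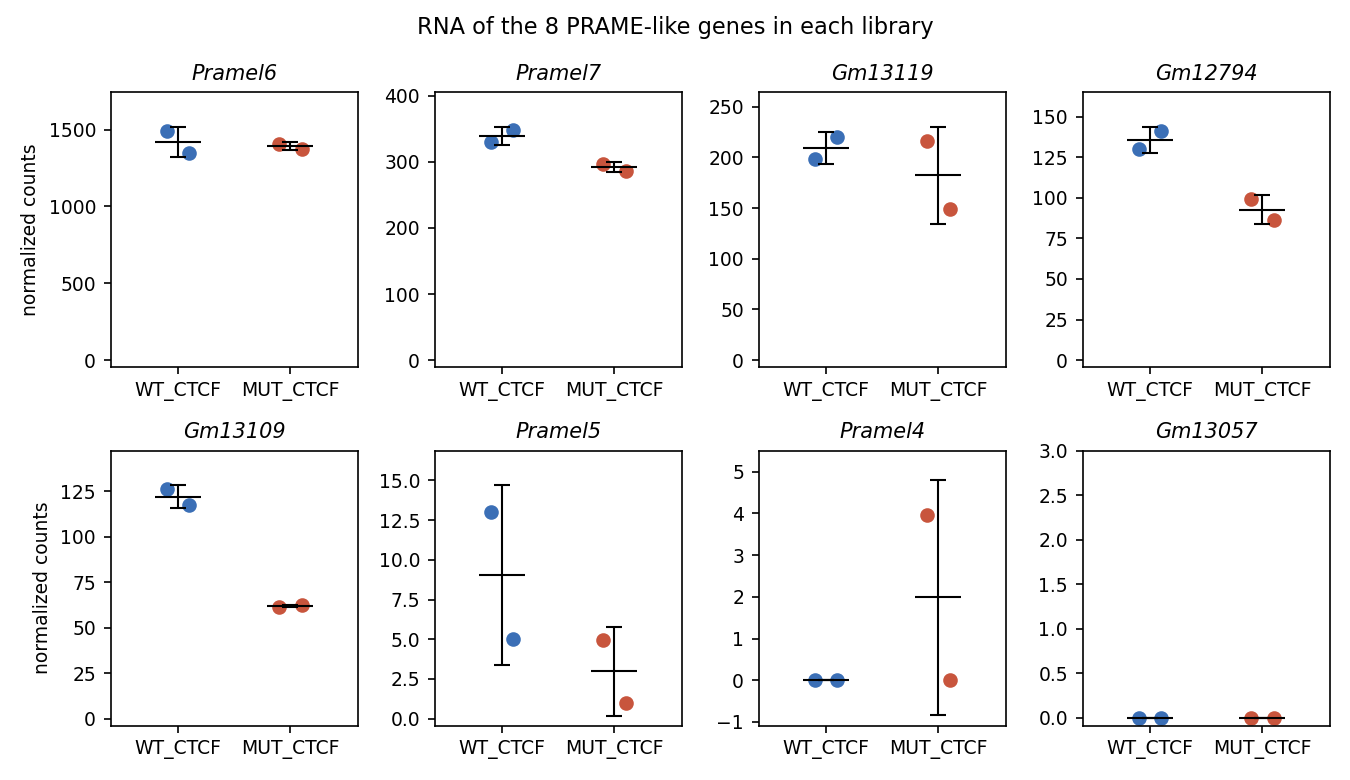
Normalized counts of the 8 genes in each library (points, 2 WT_CTCF and 2 MUT_CTCF), with the mean and SD of each line (black bars, n = 2) on linear axes that differ between panels. *Gm13109* and *Gm12794* show 2 MUT_CTCF points well below the WT_CTCF points, *Pramel7* a smaller gap, and *Pramel6* and *Gm13119* overlap.

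*Gm13109*, *Gm13119* and *Gm13057* are nearly the same in protein and promoter. *Gm13109* was counted 126 and 117 times in WT_CTCF and 62 and 62 times in MUT_CTCF mESCs, so that the libraries of each line were close and the lines were apart. The means were 122 ± 6.31 and 61.9 ± 0.588 normalized counts (SD, n = 2), a MUT_CTCF to WT_CTCF ratio of 0.508. The log2 fold change was -0.97 (standard error 0.277), the values on which it was picked. It was 1.40 CPM per kb in WT_CTCF and 0.710 CPM per kb in MUT_CTCF mESCs. The log2 fold change lay between -1.03 and -0.92 when any library was left out, and was -0.98 without a filter on low counts. Because of the pick, this range describes the processing only and is no support for the fall.

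*Gm13119*, its closest relative among the members, was counted 198 and 220 times in WT_CTCF and 218 and 148 times in MUT_CTCF mESCs. The MUT_CTCF libraries differed from each other more than the means of the lines did, and the groups overlapped. The means were 209 ± 15.7 and 182 ± 47.7 normalized counts (SD, n = 2), and the log2 fold change was -0.20 ± 0.188 (standard error; edgeR adjusted p = 0.694, interval from -0.57 to 0.17). Without MUT_CTCF replicate 2 it was 0.044. The difference between *Gm13119* and *Gm13109* was not tested, because *Gm13109* was picked for its fall. Of the counts of this pair, *Gm13109* held 38.9% and 34.7% in WT_CTCF replicates 1 and 2, and 22.1% and 29.5% in MUT_CTCF replicates 1 and 2. *Gm13057* had 0 counts in every library, which allows up to 3 counts or 0.0739 CPM by counting error alone, and the 0% of its exon found at 1 place means that these counts cannot show whether it was expressed. Of the genes that share these stretches, *Gm13040* and *Gm13043* also had 0 counts in every library and 0% of their 50-base stretches found at 1 place. *BC080695* was counted 17 and 29 times in WT_CTCF and 20 and 22 times in MUT_CTCF mESCs, and *Gm13101* was counted at most 5 times in any library.

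*Gm12794*, on its own part of chromosome 4, was counted 130 and 141 times in WT_CTCF and 100 and 86 times in MUT_CTCF mESCs. Both MUT_CTCF libraries lay below both WT_CTCF libraries, as in 22.3% of all tested genes. The means were 136 ± 7.87 and 92.8 ± 9.0 normalized counts (SD, n = 2), and the log2 fold change -0.55 ± 0.245 (standard error). The change did not pass the adjustment (edgeR adjusted p = 0.265, unadjusted p = 0.029), with an adjusted p between 0.244 and 0.723 under the other settings that gave one, and the interval ran from -1.03 to -0.068. Its copy *Gm12800*, whose name did not place it on the family list, was counted 92 and 71 times in WT_CTCF and 90 and 51 times in MUT_CTCF mESCs, with overlapping groups and a log2 fold change of -0.22 (edgeR adjusted p = 0.826).

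*Pramel5* and *Pramel4* were close to the limit of detection and were not tested. *Pramel5* was counted 13 and 5 times in WT_CTCF and 5 and 1 times in MUT_CTCF mESCs, or 9.02 ± 5.66 and 2.98 ± 2.79 normalized counts (SD, n = 2). These counts were too few to tell the lines apart. *Pramel4* was counted 4 times in MUT_CTCF replicate 1 and not at all in the other libraries, with 4.23% of its exon found at 1 place.

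The rest of the family gives the setting for these values. By name, 39 other PRAME family genes were found in the annotation. Of these, 20 had 0 counts in all libraries, 7 had some counts without passing the filter and 12 were tested. The genes at 0 had a median of 39.5% of 50-base stretches found at 1 place, beside 70.2% for the 19 genes with counts. None of the 12 passed an adjusted p under 0.05 with edgeR, beside 3.17% of all tested genes, 2 had an unadjusted p under 0.05, beside 15.3%, and DESeq2, which gave 4 of them an adjusted p, called 0. Their log2 fold changes were above 0 for 5 and below 0 for 7, with a median of -0.046. With at least 10 counts asked of every library, 8 of the 12 were tested, and 1 had an unadjusted p under 0.05 with edgeR.

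*Pramef12* and *Pramef8*, which RefSeq lists as *Pramel13* and *Pramel12*, stood above *Pramel6* and close to it, respectively, in level per length. *Pramef12* (chr4:143981577-143998367) had 22.6 CPM per kb in both lines, from 2302 and 2443 counts in WT_CTCF and 2380 and 2385 in MUT_CTCF mESCs. *Pramef8* (chr4:143002329-143010994) had 16.6 and 16.7 CPM per kb, from 2615 and 3032 counts and 2781 and 2907 counts. Both are free of copies, with 100% of stretches found at 1 place, and neither passed the test. Their log2 fold changes were 0.00045 (interval from -0.11 to 0.11) and 0.0050 (interval from -0.11 to 0.12), with edgeR adjusted p = 0.998 and 0.980, and the signs of both turned when WT_CTCF replicate 1 or MUT_CTCF replicate 2 was left out.

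*Gm13128* (8.82 CPM per kb over the 4 libraries) and *Pramef17* (3.52 CPM per kb) are the chromosome 4 relatives of *Pramel7*. They share 75.2% and 74.8% of their 50-base stretches with each other, and their counts are uncertain for that reason. *Gm13128* had a log2 fold change of 0.12 and *Pramef17* of -0.017, with edgeR adjusted p = 0.653 and 0.977. *Pramel1* was counted 312 and 378 times in WT_CTCF and 494 and 413 times in MUT_CTCF mESCs, and its log2 fold change was 0.39 ± 0.133 (standard error; unadjusted p = 0.0051, edgeR adjusted p = 0.105). Both MUT_CTCF libraries were above both WT_CTCF libraries, as in 22.3% of all tested genes. *Gm13078* was counted 31 and 22 times in WT_CTCF and 2 and 12 times in MUT_CTCF mESCs, and its log2 fold change was -1.90 ± 0.735 (standard error; edgeR adjusted p = 0.165). Its counts were low and the standard error was wide. The 2 MUT_CTCF libraries stood apart, at 1.98 and 12.1 normalized counts, so the size of this change rests on single libraries.

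**Figure D4:**
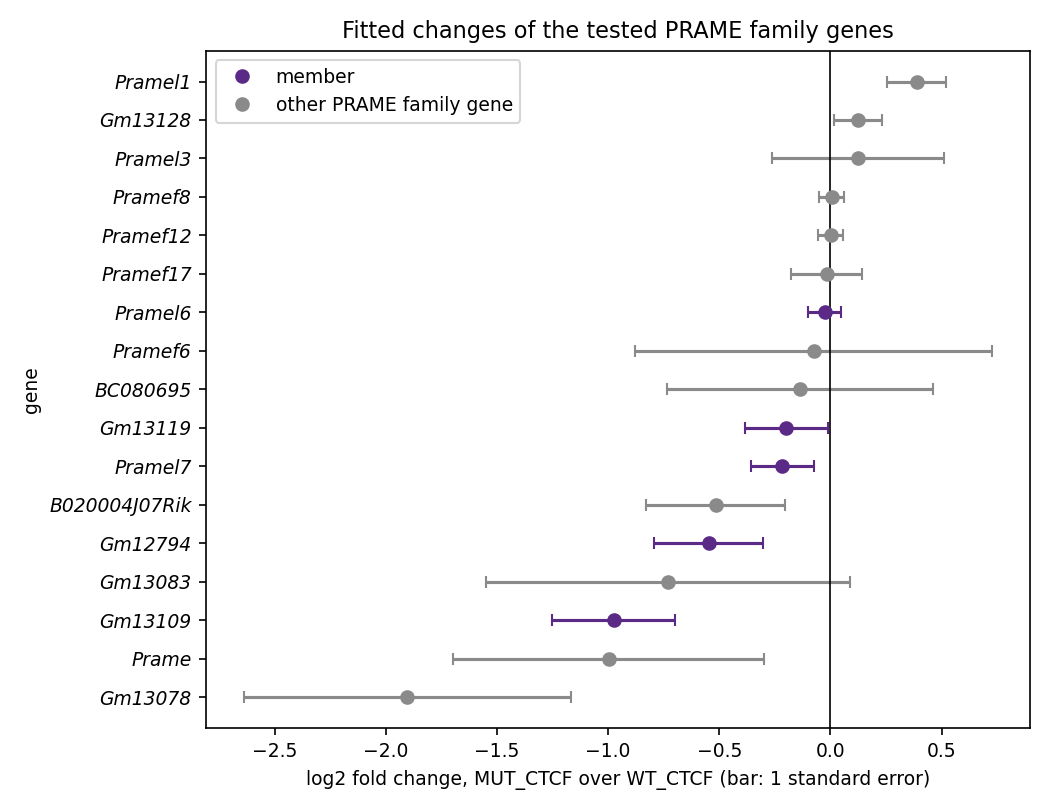
Log2 fold change of MUT_CTCF over WT_CTCF (points) with 1 standard error (bars) for the 17 tested PRAME family genes, 5 members and 12 others. *Gm13078* at -1.90 and *Gm13109* at -0.97 lie to the left, as does *Prame*, *Pramel1* at 0.39 lies to the right, and the highly expressed *Pramef8*, *Pramef12* and *Pramel6* lie within 0.03 of 0.

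On the chromosome, genes with counts and genes without lay between each other. The large chromosome 4 cluster (chr4:142984331-144155037) spans 1171 kb and holds 29 family genes among 59 annotated genes, with 12 of the 29 at 0 counts in all libraries and 11 tested. Of the 10 tested besides *Gm13109*, 4 had a log2 fold change above 0 and 6 below 0. Of the family genes above 1 CPM per kb in both lines, *Pramel1* and *Pramef8* lay at 1 end of the cluster and *Pramef17* in its middle. *Gm13128*, *Gm13119* and *Pramef12* lay towards the other end, with midpoints 380, 410 and 449 kb from that of *Gm13109*. The last family gene on that side stood at 609 kb and was counted at most 1 time in any library. *Gm13109*, with its midpoint 41.3 kb from that of *Pramef17*, passed 1 CPM per kb in WT_CTCF mESCs only (1.40 CPM per kb, against 0.710 in MUT_CTCF mESCs). *Pramef17* had 260 and 245 counts in WT_CTCF and 252 and 249 in MUT_CTCF mESCs. The nearest tested genes outside, the pseudogenes *Anp32b-ps1* at 3.64 kb and *Gm13127* at 22.1 kb, had log2 fold changes of -0.44 and -0.019, with edgeR adjusted p = 0.679 and 0.975. Around *Gm12794*, 7 annotated genes lie between it and the family gene *B020004J07Rik* with both included, and 6 of them were tested. All 6 had a log2 fold change below 0, as did 7997 of the 16264 tested genes. Their median was -0.44, and 0 were called. *B020004J07Rik*, 66.8% identical to *Gm12794* in protein, was counted 99 and 75 times in WT_CTCF and 62 and 60 times in MUT_CTCF mESCs (log2 fold change -0.52, edgeR adjusted p = 0.459). Just outside, *Lepr* and *Gm12790* had log2 fold changes of -0.17 and -0.018. Next to *Pramel6* and *Pramel7*, the nearest tested genes were the pseudogene *Gm13736* at 15.3 kb and *Lrrc55* at 2292 kb, with log2 fold changes of 0.11 and -0.094. The 3 nearest genes on the side of *Lrrc55*, all olfactory receptor genes, had no counts.

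**Figure D5:**
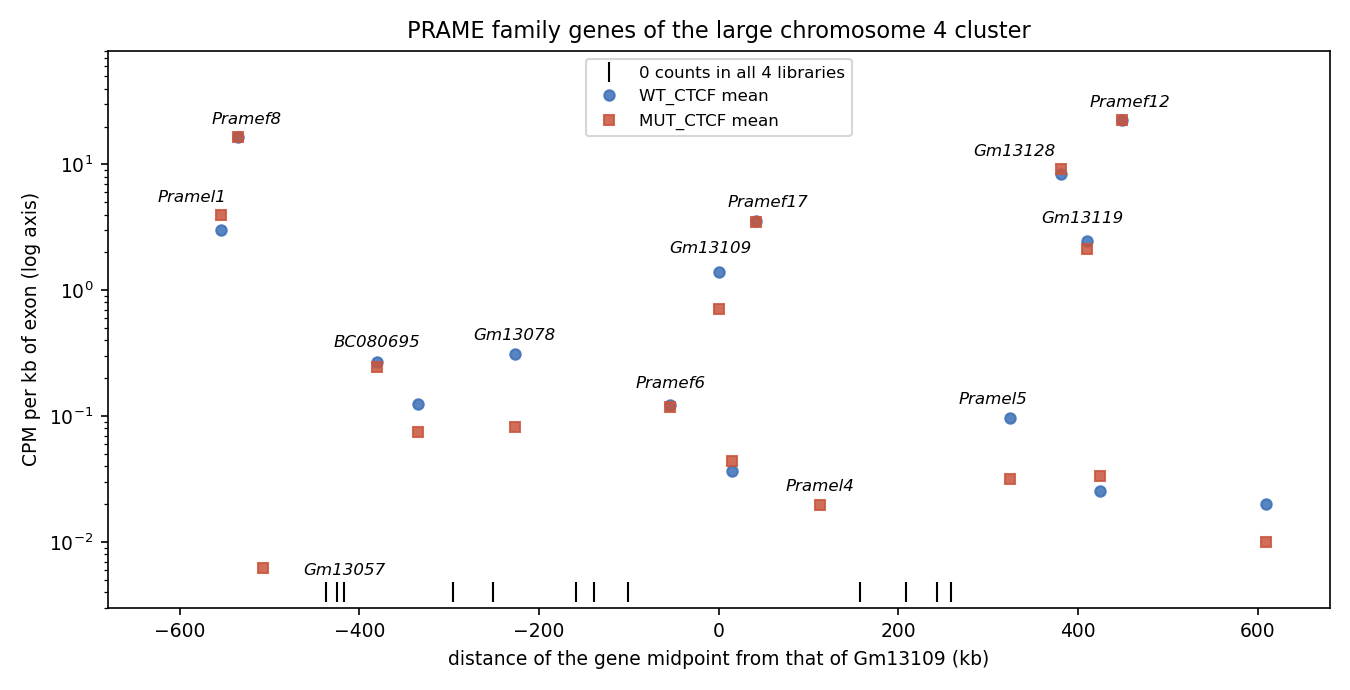
Level of each PRAME family gene of the large chromosome 4 cluster (CPM per kb of exon, log axis, mean of 2 libraries per line) against the distance of its midpoint from that of *Gm13109* in kb. Ticks at the bottom are the 12 genes with 0 counts in all libraries, a line with a mean of 0 has no point, and the gap between WT_CTCF and MUT_CTCF at 0 kb is that of *Gm13109*.

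The partners of PRAMEL7 were measured with far more counts than the gene itself. Of 13 genes for DNA methylation and for the CUL2 ligase, all tested, 1 passed an adjusted p under 0.05, *Dnmt3l*, beside 3.17% of all tested genes in either direction, and the median log2 fold change was 0.0079. *Uhrf1*, whose protein is the target of PRAMEL7, stood at 36900 ± 476 (SD, n = 2) normalized counts in WT_CTCF and 37922 ± 336 in MUT_CTCF mESCs (log2 fold change 0.039, edgeR adjusted p = 0.463). *Uhrf1* was named here for its role and not by the rule for named genes. *Dnmt3l*, a cofactor of de novo DNA methylation, fell from 3482 and 3544 counts to 2782 and 2733 counts (log2 fold change -0.36, edgeR adjusted p = 2.9e-06). It overlaps the antisense gene *Aire*. Without MUT_CTCF replicate 1 or 2 its log2 fold change was -0.36 and -0.35, in fits in which no gene of the whole table passed (edgeR adjusted p = 0.319 and 0.371 for *Dnmt3l*). *Tet3*, which oxidises methylated cytosine, and the methyltransferase *Dnmt3a* did not pass, with log2 fold changes of 0.26 (adjusted p = 0.0896) and 0.15 (adjusted p = 0.113).

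Of 15 genes of the LIF and STAT3 pathway, all tested, 1 was called, beside 3.17% of all tested genes, and the median log2 fold change was -0.021. *Socs3*, the feedback inhibitor of the pathway, fell from 7513 and 7489 counts in WT_CTCF to 6399 and 6657 counts in MUT_CTCF mESCs (log2 fold change -0.21, edgeR adjusted p = 0.00031). When no low-count filter was applied, its adjusted p was 0.219. Without MUT_CTCF replicate 1 or 2, where no gene of the whole table passed, its log2 fold change was -0.17 and -0.25 (edgeR adjusted p = 0.447 and 0.371). *Junb* and *Klf4*, 2 further targets of the pathway, had log2 fold changes of -0.24 (adjusted p = 0.068) and 0.098 (adjusted p = 0.0851) by the same test. All tests of this paragraph and the last came from the fit across all genes.

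Genes of the 2-cell-like state, a minor state of mESCs in which genes of the early embryo are switched on, had fitted values below 0 throughout. Of 18 genes listed for the state and found in the annotation, 16 were tested. The list also holds the factor *Dppa2* and its partner *Dppa4*. These stood at 34.2 and 35.1 CPM per kb in WT_CTCF mESCs, against 7.64 for *Zscan4d*. All 16 had a log2 fold change below 0, as did 7997 of the 16264 tested genes, and the median was -0.33. Both MUT_CTCF libraries lay below both WT_CTCF libraries for 14 of the 16, beside 22.3% of all tested genes, and 4 were called lower, beside 1.61%. *Zscan4d*, a marker of the state, fell from 627 and 613 counts to 421 and 440 counts (log2 fold change -0.53, edgeR adjusted p = 0.0027). *Sp110* fell from 742 ± 0.398 to 578 ± 9.03 normalized counts (SD, n = 2; -0.36, adjusted p = 0.033), and *Dppa2*, a factor that switches on genes of this state, from 2698 and 2736 to 2388 and 2282 counts (-0.22, adjusted p = 0.013). The remaining one was its partner *Dppa4* (-0.21, adjusted p = 0.046), named after its value was seen. Without MUT_CTCF replicate 1 or 2 no gene of the whole table passed, so nothing is read from the adjusted p-values of those fits, which ran from 0.407 to 0.484 for *Zscan4d*, *Sp110* and *Dppa2*. The log2 fold changes there were -0.49 and -0.58 for *Zscan4d*, -0.34 and -0.38 for *Sp110*, and -0.25 and -0.20 for *Dppa2*. Without either WT_CTCF library *Sp110* and *Dppa2* did not pass, with adjusted p-values from 0.087 to 0.171. Without a filter on low counts the adjusted p-values of the 3 genes were 0.244, 0.383 and 0.314, and *Sp110* also missed the threshold with library size only (0.0517) and with DESeq2 (0.0865). The *Zscan4* genes are near-identical copies whose reads may be split. The values stand beside those of the members, and no relation between the lists was tested.

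The genes whose pattern over the 4 libraries was most like that of *Gm13109*, by the distance between log2 CPM profiles centred on their own mean, were *Krt15* (distance 0.114), *Gm17245* (0.155) and *Gm12758* (0.165). *Krt15* was counted 23 and 23 times in WT_CTCF and 12 and 11 times in MUT_CTCF mESCs. The other two were counted 18 to 42 and 11 to 26 times per library and overlap antisense genes. The ranking rests on the values for which *Gm13109* was picked, so it is a description and nothing is read from which genes it holds.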

How the data were processed

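Reads were trimmed (Trim Galore 0.4.4), aligned to mm9 with STAR at default settings and, where uniquely mapped, counted per gene (HTSeq 0.9.1; versions from the submitters' processing notes). The counts deposited by the authors are raw. A further deposited table holds the authors' fold changes and p-values from edgeR and was not used here. Read length, strand setting and annotation release of the counting are not given in the sources used here.

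The members and gene lists were chosen with earlier results of these data known. GENCODE M1 named 37205 of 37620 gene identifiers and gave exon lengths, positions and coding sequences. Genes were kept by filterByExpr (minimum 10 counts), scaled by TMM and tested with glmQLFit and glmQLFTest of edgeR 4.0.16 (R 4.3.3), with Benjamini-Hochberg adjustment over 16264 genes. A gene at 0 counts could hold up to 3, a limit that covers counting error only. In simulated counts, 75.5% of genes changed by a fold of 2 were recovered with 1.33% of calls false, among 15958 tested, and 47.7% of genes changed by a fold of 1.3 with 8.91% of calls false, among 15970 tested.

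Named were the 8 members, other family genes with an unadjusted p under 0.05 or among the 5 highest per kb, the 3 smallest p-values of each further list, the nearest tested neighbours, the 3 genes most like *Gm13109*, and *Ctcf*. Outside this rule, *B020004J07Rik*, *Gm12800*, *BC080695*, *C87499*, *Gm13040*, *Gm13043*, *Gm13101* and *Gm13102* were named as relatives or sequence copies of members, *Uhrf1* for its role and *Dppa4* as the remaining call of its list, all with their values already seen. *Cdx2* was named as a marker, also with its value already seen. Exon stretches, protein identity (Biopython 1.88) and promoters were computed from the mm9 genome. Promoter letters were searched on both strands, and coding sequences were translated for identity only. Alternatives were DESeq2 1.42.0, its size factors in edgeR, library size only, edgeR's exact test, no filter, at least 10 counts in every library, a fit with a replicate block, and leaving out each library. The level per kb of exon found at 1 place was added after the data had been seen.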

Additional observations from a re-analysis of the deposited data

How the results depend on the processing

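The log2 fold change of *Gm13109* stayed between -1.03 and -0.92 under every alternative run. It was picked on this contrast, so this range describes the processing only and is no support for the fall. Members are counted without *Gm13109*, a choice made after seeing the data. Of the other members, 0 were lower at an adjusted p under 0.05 in the fit reported, without a filter and with the replicate block, and 0 to 0 when each library was left out in turn. Without MUT_CTCF replicate 1 or 2 no gene of the whole table passed. Over all genes, 253 were higher and 262 lower. Without a filter these became 23 and 2, with DESeq2 141 and 161, with library size only 153 lower, and with a library left out 0 to 140 higher and 0 to 102 lower. At the study's criterion (fold change above 2 and unadjusted p under 0.05) there were 212 genes, 117 with at least 10 counts in every library and 126 with DESeq2. Replicate numbers did not pair the libraries (correlation of the differences between replicates of the 2 lines -0.020), and the replicate block moved the calls to 326 higher and 372 lower. *Klf4*, *Tet3* and *Junb* passed only with the block or, for *Junb*, also in edgeR's exact test. Signs turned for genes whose value lay between -0.20 and 0.11. Over the fits with a library left out, log2 fold changes ran from -0.097 to 0.046 for *Pramel6*, -0.49 to 0.044 for *Gm13119*, -0.043 to 0.043 for *Pramef12*, -0.099 to 0.12 for *Pramef8*, -0.060 to 0.025 for *Pramef17*, -0.13 to 0.096 for *Gm13127*, -0.62 to 0.29 for *Lrrc55*, -0.43 to 0.050 for *Lepr*, -0.17 to 0.12 for *Gm12790* and -0.42 to 0.49 for *Gm13736*. Without a filter *Pramef12* stood at -0.00086. The cause was not tested. Depth limits *Pramel4*, *Pramel5* and *Gm13078*, and sequence copies limit *Gm13057*, *Pramel4*, *Gm13109* and *Gm12794*.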
